A study of Mus musculus with 10 samples.

Results

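The keratins described here are 4 genes of luminal epithelium (Krt7, Krt8, Krt18 and Krt19) and 4 genes of basal epithelium (Krt5, Krt14, Krt15 and Krt17), followed through RNA sequencing of mouse mammary tumors. They were taken by gene name from 2 deposited expression tables, and each of the 8 genes was listed in both tables, among 23202 genes for sorted tumor macrophages and 19720 genes for whole tumors (24616 genes in the series). Every mouse was B6:MMTV-PyMT, a strain in which the MMTV promoter drives the polyoma middle T oncogene in mammary epithelium, and every mouse carried Cxcr4fl/fl, the floxed alleles of a chemokine receptor gene. Mice labelled cKO also carried LysmCre, a Cre recombinase driven by the myeloid LysM promoter, and controls were littermates without Cre. Tumors were taken at 15 weeks of age and matched for size between the groups. The sorted libraries came from tumors digested with Collagenase D and Dnase I and sorted on F4/80 and CD11b, with 3 libraries labelled cKO (mice 725, 746 and 867) and 3 controls (mice 706, 720 and 775). The whole-tumor libraries came from snap-frozen tumors of 2 mice labelled cKO (725 and 746) and 2 controls (706 and 720). Each library within a table is from a different mouse, and 4 of the 6 mice gave a library to both tables.

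Keratins form the intermediate filaments of epithelial cells. A filament is built from pairs of a type I and a type II keratin, so a cell that makes filaments needs a partner of each type. In the mammary gland Krt8 and Krt18, with Krt7 and Krt19, are the keratins of the luminal cells that line ducts and alveoli, and Krt5 with Krt14 are those of the basal and myoepithelial layer. Krt15 and Krt17 are type I keratins known best from the basal layer and the appendages of the skin. Tumors of MMTV-PyMT mice are known as luminal in character, and macrophages are not known to build keratin filaments.

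A level is given in CPM, the read count of a gene scaled to a library total of 1000000 over the listed genes. A difference subtracts the mean of the controls from that of the libraries labelled cKO after taking log2 of CPM + 1. Sorted libraries held 14.4 to 25.2 M reads and tumor libraries 34.1 to 53.4 M reads (M, 1000000), a depth read from the spacing of low values. In such bulk libraries fewer cells of a type and less RNA per cell cannot be told apart. A gene listed at 0 allows up to 0.119 to 0.208 CPM in a sorted library and 0.0562 to 0.0879 CPM in a tumor library (3 reads, counting error only). Cxcr4, the targeted gene, was at 41.9, 165.2 and 24.1 CPM in sorted libraries labelled cKO (mice 725, 746 and 867) and at 14.4, 135.4 and 54.3 CPM in controls (706, 720 and 775), a difference of 0.21 (SE 0.59). It was therefore not lower in the libraries labelled cKO, and the directions given here are those of the labels. The labels do not say which part of Cxcr4 is floxed, so reads inside and outside that part could not be separated. In whole tumors, where all cells are read, Cxcr4 was at 47.9 and 57.6 CPM in those labelled cKO (725 and 746) and at 29.8 and 33.4 CPM in controls (706 and 720), a difference of 0.72 (SE 0.29, unadjusted p = 0.0242, limma adjusted p = 0.819) with both tumors labelled cKO above both controls. Of all 14630 genes tested in tumors, 21.2% lay wholly above in the same way. All 10 macrophage markers of a marker list, Adgre1 among them, were present in the sorted libraries, where their summed level was 1856 to 2659 CPM in libraries labelled cKO and 943 to 2343 CPM in controls. In whole tumors the same sum was 97.0 to 125.2 CPM in libraries labelled cKO and 96.0 to 120.3 CPM in controls. Epithelial transcripts were also abundant in the sorted libraries: all 12 markers of a list without keratins were present, at a sum of 3854 to 4839 CPM in libraries labelled cKO and 3785 to 4357 CPM in controls. A single gene, Cldn4, made up much of this sum, at a mean of 2043 CPM against 4200 CPM for the sum over the 6 libraries. Sorted libraries of cKO 867 and control 775 stood apart in other cell types, with a fibroblast marker sum of 1189.9 and 432.5 CPM, against 59.9 to 146.5 CPM in the other 4 sorted libraries, and control 775 had the lowest macrophage marker sum, 943 CPM.

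The 8 genes sit in 2 clusters of the genome. In GRCm38 with GENCODE vM21, the type II genes lie on chromosome 15, with Krt7 at chr15:101411043-101430313 on the plus strand, Krt5 at chr15:101707070-101712898 on the minus strand and Krt8 at chr15:101996698-102004482 on the minus strand. Krt18, a type I gene, lies beside them at chr15:102028180-102032027 on the plus strand, its start 23698 bases from that of Krt8, its filament partner. The other type I genes lie on the minus strand of chromosome 11: Krt15 at chr11:100131758-100135928, Krt19 at chr11:100140810-100148665, Krt14 at chr11:100203162-100207548 and Krt17 at chr11:100256217-100261029. Krt7 overlaps the antisense gene Gm671, which reached at most 2.02 CPM in any library, and Krt8 overlaps Gm36026, which reached at most 2.36 CPM in the sorted libraries and was not listed for tumors. Krt8 has a processed pseudogene, Krt8-ps, at chr7:23357125-23358069, and 22.0% of the 75-base stretches of Krt8 occur in it unchanged. Levels of Krt8 and Krt8-ps are therefore uncertain against each other. Krt5 shares 7.77% of its stretches with other genes, mostly Krt6a (4.71%), Krt14 shares 5.91% with Krt16, and the other 5 genes share none.

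RefSeq (GRCm38.p6) gave a promoter window, 250 bases before to 50 bases after the annotated start, for 5 of the 8 genes. The windows of Krt8 and Krt18, neighbouring genes whose products pair in 1 filament, and of Krt5, the gene whose level in sorted cells went the other way, are shown 5′ to 3′ on the strand of the gene. Krt8 is at chr15:102004293-102004592 on the minus strand, Krt18 at chr15:102027966-102028265 on the plus strand and Krt5 at chr15:101712856-101713155 on the minus strand. Capitals mark matches, on either strand, to 5 motifs. TATAAA is the box that positions transcription at many regulated genes, and GGGCGG is the GC box bound by Sp1. TGANTCA is the site of AP-1 factors, GCCNNNGGC that of AP-2 factors, and CACCTG the E-box bound by Snail and Zeb factors.
Krt8: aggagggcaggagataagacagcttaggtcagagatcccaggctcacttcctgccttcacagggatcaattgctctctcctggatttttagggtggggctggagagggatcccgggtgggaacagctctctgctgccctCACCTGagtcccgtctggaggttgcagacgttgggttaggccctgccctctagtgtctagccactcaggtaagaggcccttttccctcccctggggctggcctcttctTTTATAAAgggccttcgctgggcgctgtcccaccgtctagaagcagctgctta
Krt18: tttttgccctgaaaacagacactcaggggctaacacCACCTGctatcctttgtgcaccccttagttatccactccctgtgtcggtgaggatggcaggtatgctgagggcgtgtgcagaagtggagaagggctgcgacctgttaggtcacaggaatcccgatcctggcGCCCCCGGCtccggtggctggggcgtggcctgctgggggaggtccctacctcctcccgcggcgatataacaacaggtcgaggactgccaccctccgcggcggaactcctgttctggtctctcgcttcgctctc
Krt5: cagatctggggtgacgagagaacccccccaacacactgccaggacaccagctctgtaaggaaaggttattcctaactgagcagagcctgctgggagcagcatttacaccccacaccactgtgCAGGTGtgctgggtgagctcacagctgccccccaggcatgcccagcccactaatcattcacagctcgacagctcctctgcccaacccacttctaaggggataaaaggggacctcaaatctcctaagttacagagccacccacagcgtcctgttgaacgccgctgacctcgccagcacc
The Krt8 window holds a TATAAA that begins 1 base before the RefSeq start, overlapped by its match on the other strand, and a CACCTG that begins 111 bases before that start. GENCODE places the start of Krt8 140 bases upstream of the RefSeq start. The Krt18 window has no TATAAA but has a CACCTG that begins 214 bases before the start and a GCCNNNGGC that begins 83 bases before it. The Krt5 window has the E-box in reverse, CAGGTG, beginning 128 bases before the start. CACCTG was in 4 of the 5 windows (Krt7, Krt8, Krt18 and Krt5) and in 20.2% of all 32851 windows of the table. TATAAA was in that of Krt8 alone and in 13.6% of all windows, GGGCGG in that of Krt7 alone and in 35.7%, GCCNNNGGC in those of Krt7 and Krt18 and in 16.6%, and TGANTCA in none of the 5 and in 7.81%. These matches describe the letters of the windows and no binding.

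In the sorted libraries the 4 luminal keratins were read at 69.2 to 681.1 CPM. Krt18, the type I luminal keratin, was at 374.6, 681.1 and 621.0 CPM in libraries labelled cKO (725, 746 and 867) and at 379.4, 436.0 and 473.4 CPM in controls (706, 720 and 775). Krt8, its type II partner, was at 299.7, 526.4 and 366.3 CPM in libraries labelled cKO and at 277.5, 456.7 and 260.2 CPM in controls. For both genes cKO 746 was the highest library, and the groups overlapped. Krt19, the smallest type I keratin and one found in ducts, was at 288.5, 279.9 and 303.9 CPM in libraries labelled cKO and at 363.9, 215.8 and 592.3 CPM in controls. Its libraries labelled cKO lay close together, inside the range of the controls, which had both the lowest (720) and the highest (775) value. Krt7, a type II keratin of ducts and glands, was at 69.2, 106.8 and 140.6 CPM in libraries labelled cKO and at 128.6, 79.3 and 125.6 CPM in controls, again with overlapping groups.

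The basal keratins were far lower in the same libraries. Krt14, the type I keratin of basal cells, was at 4.87, 27.7 and 10.2 CPM in libraries labelled cKO (725, 746 and 867) and at 11.9, 16.5 and 6.83 CPM in controls (706, 720 and 775), with mouse 746 highest. Krt5, its type II partner, was at 1.87, 0 and 6.40 CPM in libraries labelled cKO and at 0.0695, 0 and 0.913 CPM in controls. Krt5 was thus highest in the library of mouse 867 and had under 3 reads in 3 of the 6 libraries, among them that of mouse 746 with the most Krt14. Krt17, a type I keratin that skin induces on injury, was at 2.36, 11.5 and 5.05 CPM in libraries labelled cKO and at 4.31, 0.534 and 0.348 CPM in controls. Krt15, a type I keratin of basal skin cells and the hair follicle, was at 1.97, 0 and 0 CPM in libraries labelled cKO and at 0, 0.623 and 2.696 CPM in controls. Its mean was below the 1 CPM needed to enter the test, as it was in tumors.

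In whole tumors the luminal keratins again led. Krt18 was at 133.2 and 126.0 CPM in tumors labelled cKO (725 and 746) and at 128.4 and 111.4 CPM in control tumors (706 and 720), and Krt8 was at 56.4 and 66.6 CPM in tumors labelled cKO and at 50.9 and 69.3 CPM in control tumors. Krt7 was at 13.1 and 17.9 CPM in tumors labelled cKO and at 18.9 and 12.3 CPM in control tumors. The groups overlapped for all 3 genes. Krt19 was at 68.0 and 42.7 CPM in tumors labelled cKO and at 40.5 and 37.5 CPM in control tumors, with both tumors labelled cKO above both controls.

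Among basal keratins in tumors, Krt5 was at 10.4 and 4.52 CPM in tumors labelled cKO (725 and 746) and at 7.03 and 6.19 CPM in control tumors (706 and 720). Krt14 was at 3.43 and 3.90 CPM in tumors labelled cKO and at 3.66 and 7.94 CPM in control tumors. Both genes had overlapping groups. Krt17 was at 1.65 and 1.53 CPM in tumors labelled cKO and at 1.87 and 1.98 CPM in control tumors, so both tumors labelled cKO lay below both controls by a small step. Krt15 was at 0.524 CPM in the tumor of cKO 725 and listed at 0 in that of cKO 746 and in both control tumors.

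**Figure D1:**
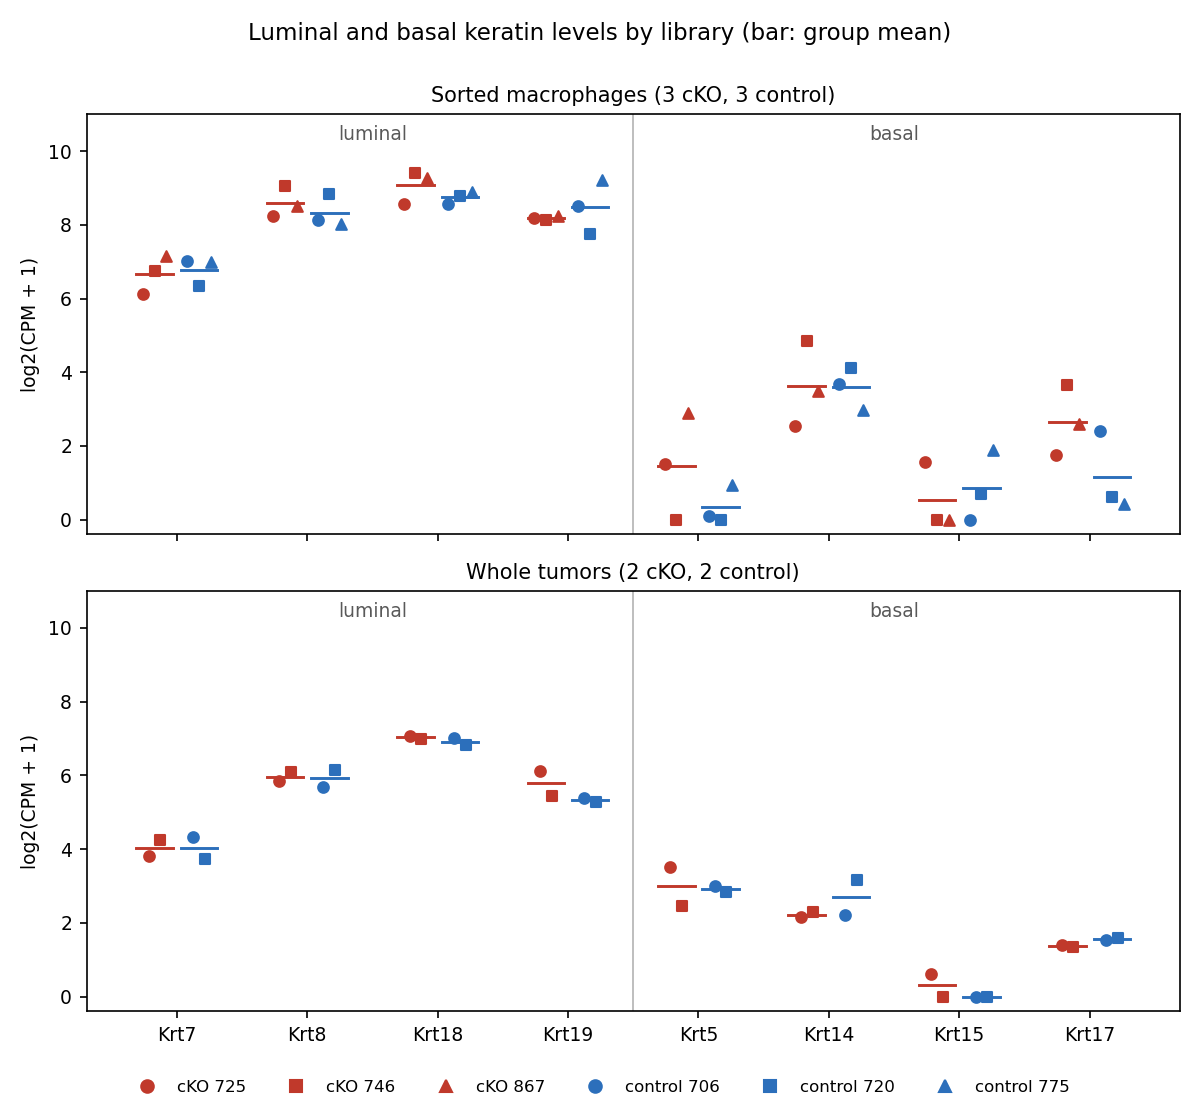
Level of each keratin as log2(CPM + 1) on the vertical axis, in sorted macrophage libraries (upper panel) and whole tumors (lower panel); each point is a library, red for mice labelled cKO and blue for controls, and bars are group means. The luminal keratins sit above the basal ones in both panels, with Krt18 at 374.6 to 681.1 CPM in sorted libraries, and Krt5 and Krt15 include libraries at 0.

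Per kilobase of exon, where levels can be compared between genes, the order in the sorted libraries was Krt18 (343.9 ± 89.3 CPM per kb, SD, n = 6), Krt8 (186.1 ± 54.7), Krt19 (183.7 ± 71.2), Krt7 (15.4 ± 4.08), Krt14 (7.39 ± 4.70), Krt17 (2.59 ± 2.67), Krt5 (0.702 ± 1.13) and Krt15 (0.499 ± 0.663). Krt18 was above Krt8 in 6 of 6 libraries, whereas Krt8 was above Krt19 in 3 of 6 and Krt5 above Krt15 in 2 of 6, so these neighbours were not ordered beyond their spread. Krt7 was above Krt14 in 5 of 6 libraries and Krt14 above Krt17 in 6 of 6. In tumors the order was Krt18 (86.8 ± 6.54 CPM per kb, SD, n = 4), Krt8 (31.0 ± 4.41), Krt19 (25.4 ± 7.58), Krt5 (3.20 ± 1.13), Krt14 (2.69 ± 1.22), Krt7 (2.21 ± 0.473), Krt17 (1.13 ± 0.133) and Krt15 (0.0742 ± 0.148). Krt18 was above Krt8 in 4 of 4 tumors and Krt8 above Krt19 in 3 of 4, but Krt5 was above Krt14, and Krt14 above Krt7, in only 2 of 4 tumors, so these 3 were not ordered. Scaled by the longest coding transcript in place of all exons, Krt19 moved above Krt8 in the sorted libraries, and Krt7, whose exons span 7049 bases against 4094 in that transcript, moved to rank 4 in tumors.

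The sorted comparison asks whether myeloid loss of Cxcr4 goes with a change in tumor macrophages. Which cells of the sorted libraries the keratin reads came from was not tested. No keratin changed past the test. The luminal keratins differed by 0.34 for Krt18 (95% interval -0.22 to 0.89), 0.27 for Krt8 (-0.31 to 0.85), -0.10 for Krt7 (-0.71 to 0.51) and -0.31 for Krt19 (-0.92 to 0.31). Each interval spans 0, and each leaves room for a difference of over 0.5 in at least 1 direction. The basal differences were 1.51 for Krt17 (SE 0.81, 95% interval -0.16 to 3.18), 1.12 for Krt5 (SE 0.89) and 0.03 for Krt14 (SE 0.58). All 7 tested keratins had the same adjusted p of 0.9998 (limma over 16304 genes). Of those 16304 genes 0%, that is 0 genes, passed an adjusted p of 0.05, while 428 had an unadjusted p under 0.05. None of the 7 keratins had every library labelled cKO above every control or every one below, against 3.78% and 3.45% of all genes tested. The median difference was 0.05 over all genes. Leaving out 1 library turned the sign of Krt7 (0.17 without cKO 725, 0.02 without control 706 and 0.01 without control 775), of Krt19 (0.05 without control 775) and of Krt14 (-0.58 without cKO 746 and -0.28 without control 775). It moved Krt8 between 0.047 (without cKO 746) and 0.52 (without control 720), and Krt18 between 0.17 (without cKO 746) and 0.60 (without cKO 725). The size of the basal differences depends on the pseudocount: Krt5 differed by 2.07 and 0.46, and Krt17 by 2.29 and 0.72, with 0.1 and 5 CPM added in place of 1. Krt5 differed by 1.86 without cKO 746 and averaged under 1 CPM without cKO 867, so that it was not tested there, and Krt17 ran from 1.02 (without cKO 746) to 2.14 (without control 706).

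Some of the highest keratin values fell in libraries with high marker sums of other cell types, but not in step over the 6 libraries. Krt5 and Krt15 were also at 1.87 and 1.97 CPM in cKO 725, which had the lowest fibroblast sum, 59.9 CPM. Krt15 was at 0 in cKO 867. Krt5, at its highest in cKO 867 (6.40 CPM), was highest in the library that also had the highest fibroblast and endothelial marker sums, 1189.9 and 264.6 CPM, while control 775, second in both sums with 432.5 and 95.3 CPM, had the highest Krt19 and Krt15. Their part in the result was not tested. Without these libraries, in the 4 mice that also gave tumors, Krt19 differed by 0.02 and Krt14 by -0.21, and no keratin passed the test. The 10 markers of skin and hair follicle keratinocytes summed to 6.04 to 7.50 CPM in sorted libraries labelled cKO and 3.56 to 12.1 CPM in controls. Of them 6 were listed, only Krt10 averaged above 1 CPM, and Krt1, Krt2, Lor and Krt25 were not listed.

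In whole tumors no keratin passed the test either. Krt19 differed by 0.46 (95% interval -0.17 to 1.09, limma adjusted p = 0.850), a value that was 0.13 without the tumor of cKO 725 and 0.79 without that of cKO 746. Krt18, Krt8 and Krt7 differed by 0.11 (SE 0.21), 0.04 (SE 0.26) and 0.01 (SE 0.45), below their errors. The basal keratins differed by 0.06 for Krt5 (SE 0.65), -0.18 for Krt17 (SE 0.89) and -0.47 for Krt14 (SE 0.74). The value of Krt14 rests on control 720: it was -0.00065 without that tumor and -0.94 without control 706, and -0.55 and -0.29 with pseudocounts of 0.1 and 5. Those pseudocounts gave -0.26 and -0.07 for Krt17. Adjusted p-values of the 7 genes ran from 0.850 to 0.999 over 14630 genes, of which 0% passed and 856 had an unadjusted p under 0.05. Krt19 lay above in both tumors labelled cKO and Krt17 below, in a table where 21.2% of all genes lay wholly above and 14.3% wholly below, so 1 gene of 7 in each direction is near that background. The median difference over all genes was 0.09, and it moved to -0.03 when values were scaled to protein-coding genes, under which Krt18, Krt8, Krt7 and Krt5 had values from -0.11 to -0.0027. Leaving out 1 tumor turned the sign of Krt5 (-0.46 without cKO 725 and -0.02 without control 720), of Krt7 (-0.21 without cKO 746 and -0.28 without control 720) and of Krt8 (-0.07 without cKO 746 and -0.18 without control 706). Other measures separated the tumor groups as well. All 8 fibroblast markers of a list were present, with sums of 346.4 and 457.7 CPM in tumors labelled cKO (725 and 746) and 611.0 and 717.3 CPM in control tumors (706 and 720), and the share of reads in protein-coding genes was 53.0% and 56.5% in those labelled cKO and 51.3% and 49.7% in controls. Their part in the keratin values was not tested.

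**Figure D2:**
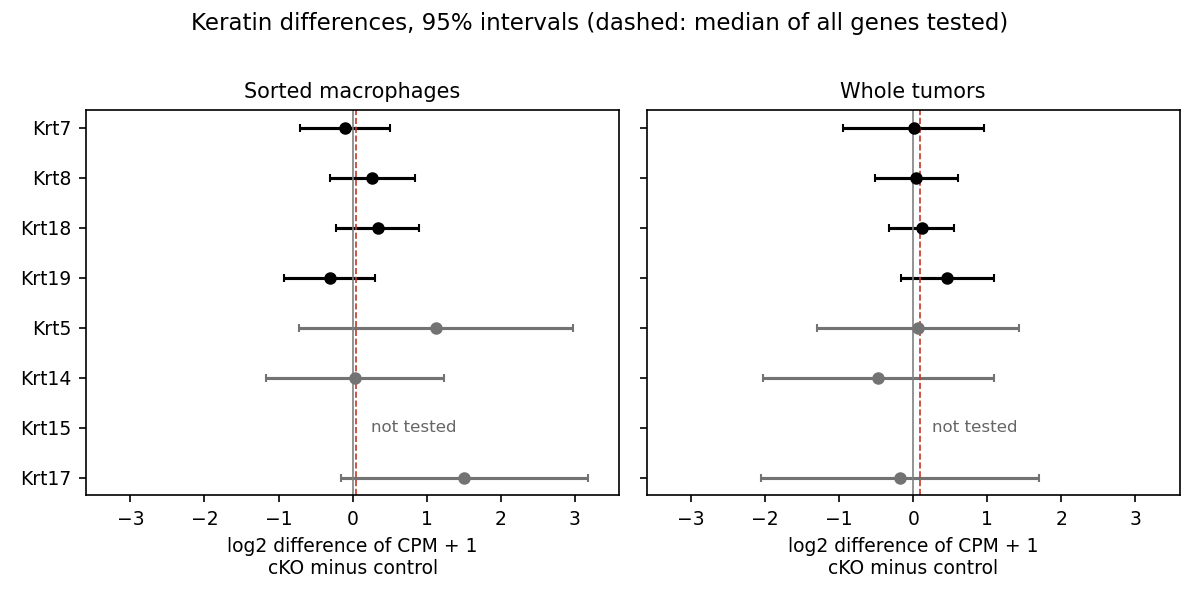
Difference between libraries labelled cKO and controls for each keratin, as log2 of CPM + 1 on the horizontal axis, in sorted macrophages (left) and whole tumors (right); points are limma estimates, bars 95% intervals, black for luminal and grey for basal genes, and the dashed red line is the median of all genes tested. Every interval spans 0, and the basal intervals, such as -0.16 to 3.18 for Krt17 in macrophages, are wider than the luminal ones in sorted macrophages.

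The luminal sum was 1032, 1594 and 1432 CPM in sorted libraries labelled cKO (725, 746 and 867) and 1149, 1188 and 1451 CPM in sorted controls (706, 720 and 775). In tumors it was 270.7 and 253.2 CPM in those labelled cKO (725 and 746) and 238.7 and 230.5 CPM in controls (706 and 720). In each of the 4 shared mice the sorted library had more luminal keratin than the tumor, by 3.81-fold to 6.30-fold as deposited. No test was run across the tables, since each was normalized on its own and the share of reads in protein-coding genes was 67.6% to 80.1% in sorted libraries and 49.7% to 56.5% in tumors. Scaled to protein-coding genes, Krt7, Krt8, Krt18, Krt19 and Krt14 were still higher in the sorted library in 4 of 4 mice, Krt14 by as little as 1.02-fold, and Krt5 was still lower in 4 of 4. Among 13221 protein-coding genes averaging at least 1 CPM in either table, 33.9% were higher in the sorted library in 4 of 4 mice and 13.2% were higher in none as deposited, against 19.4% and 27.1% when scaled to protein-coding genes.

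A ratio within a library does not depend on how the library was scaled. The luminal keratin sum over the sum of the 12 epithelial genes was 0.268, 0.329 and 0.328 in sorted libraries labelled cKO (725, 746 and 867) and 0.304, 0.297 and 0.333 in sorted controls (706, 720 and 775). In tumors it was 0.144 and 0.139 in those labelled cKO (725 and 746) and 0.119 and 0.133 in controls (706 and 720). Every sorted library thus had more luminal keratin per unit of other epithelial RNA than every tumor, 1.86-fold to 2.55-fold more in the 4 shared mice (log2 1.16 ± 0.20, SD, n = 4 mice). The size of this step depends on the genes of the list: it was 1.91 against Epcam alone, an epithelial adhesion gene, and 0.75 without Esrp1, an epithelial splicing regulator lower in the sorted library in 4 of 4 mice. Without Cldn4, a tight junction gene that was 20.6-fold to 27.0-fold higher in the sorted libraries, it was 2.02. The 4 keratins did not share the step equally. Relative to the list, Krt8 was 2.59-fold to 2.99-fold, Krt7 2.25-fold to 3.604-fold, Krt19 2.07-fold to 4.76-fold and Krt18 1.37-fold to 2.04-fold higher in the sorted library of the same mouse.

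Krt18 and its partner differed in the size of this step. The ratio of Krt18 to Krt8 in CPM was 1.25, 1.29 and 1.70 in sorted libraries labelled cKO (725, 746 and 867) and 1.37, 0.955 and 1.82 in sorted controls (706, 720 and 775), and it was 2.36 and 1.89 in tumors labelled cKO (725 and 746) and 2.52 and 1.61 in control tumors (706 and 720). Within each of the 4 shared mice the ratio was lower in the sorted library, at 0.529, 0.684, 0.541 and 0.594 of its value in the tumor of mice 725, 746, 706 and 720. Per kilobase Krt18 made up 56.5% to 71.3% of the Krt8 and Krt18 sum in sorted libraries and 68.6% to 77.5% in tumors. Adding Krt8-ps to Krt8 left the ratio lower in 4 of 4 mice, at 0.512 to 0.726 of the tumor value. Krt8-ps was at 144.9, 170.8 and 194.9 CPM in sorted libraries labelled cKO and 100.6, 155.1 and 132.9 CPM in sorted controls, a difference of 0.40 (SE 0.26, limma adjusted p = 0.9998). In tumors it was at 24.5 and 19.8 CPM in those labelled cKO and 35.1 and 44.1 CPM in controls, a difference of -0.81 (SE 0.33, unadjusted p = 0.0260, limma adjusted p = 0.819). With Krt8 and Krt8-ps summed, the tumor difference of Krt8 turned to -0.24 and the macrophage difference was 0.31, and neither passed the test.

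The basal partners differed in direction between the tables. Krt14 was higher in the sorted library than in the tumor of the same mouse in 4 of 4 mice, by 1.42-fold to 7.11-fold as deposited and 1.02-fold to 5.10-fold when scaled to protein-coding genes, while Krt5 was lower in 4 of 4, at 0 to 1.87 CPM in sorted libraries and 4.52 to 10.4 CPM in tumors. Relative to the 12 epithelial genes, Krt14 in the sorted library was 0.692, 2.68, 1.73 and 0.902 of its tumor value in mice 725, 746, 706 and 720, above 1 in 2 of 4 mice. Per kilobase, Krt5 made up 23.5%, 0% and 33.5% of the Krt5 and Krt14 sum in sorted libraries labelled cKO (725, 746 and 867) and 0.463%, 0% and 9.67% in sorted controls (706, 720 and 775). In tumors its share was 70.8% and 48.1% in those labelled cKO (725 and 746) and 60.6% and 38.4% in controls (706 and 720). Every sorted library was below every tumor in this share. Krt17 was higher in the sorted library in 3 of 4 mice, with mouse 720 the exception. The 4 basal keratins together made up 1.07%, 2.49% and 1.47% of the keratin level per kilobase in sorted libraries labelled cKO and 1.53%, 1.49% and 0.751% in sorted controls. In tumors they made up 4.79% and 3.45% in those labelled cKO and 4.43% and 6.0% in controls. The basal share was lower in the sorted library in 4 of 4 shared mice, by 0.49 to 2.22 log2 units of the basal to luminal ratio. The basal sum itself was not lower in most of them. As deposited, it was 0.691, 3.94, 1.30 and 1.09 of its tumor value in mice 725, 746, 706 and 720, above 1 in 3 of 4 mice. The luminal sum was 3.81-fold to 6.30-fold higher in the same mice. Both of these comparisons depend on how each table was scaled.

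**Figure D3:**
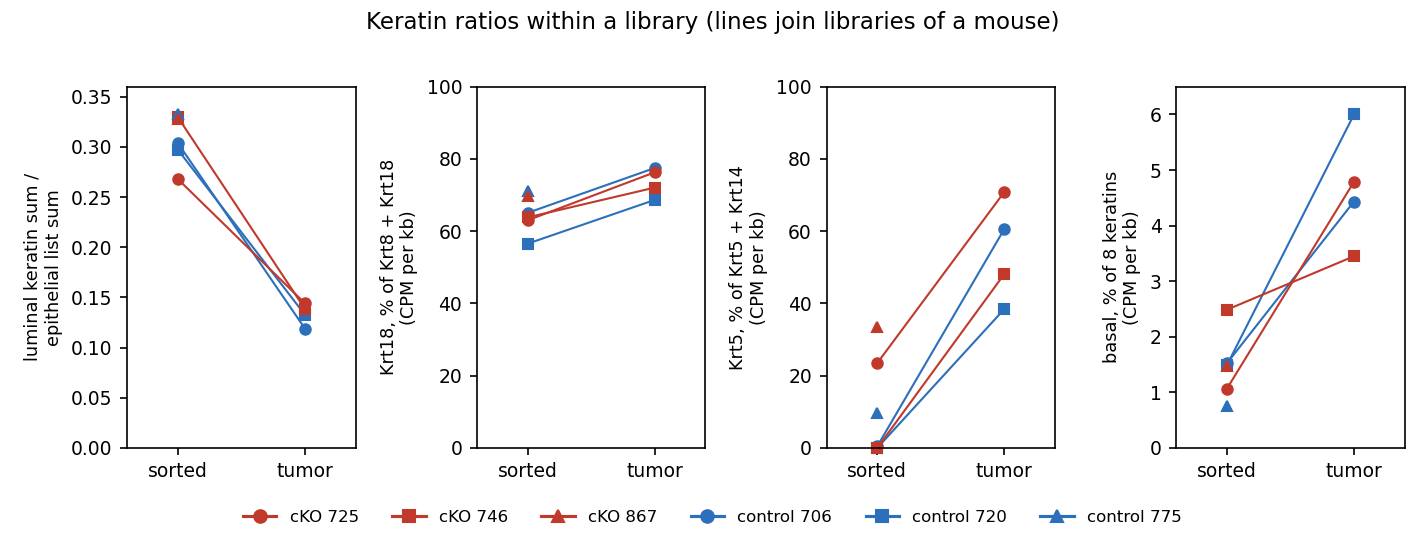
Ratios within a library on linear axes, sorted macrophages at the left and whole tumors at the right of each panel; red points are mice labelled cKO, blue points controls, and lines join the libraries of a mouse. From left to right the panels show luminal keratins per unit of 12 other epithelial genes (0.268 to 0.333 sorted, 0.119 to 0.144 tumor), the Krt18 share of Krt8 and Krt18, the Krt5 share of Krt5 and Krt14, and the basal share of the 8 keratins, the last 3 in percent of CPM per kb.

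Other genes of the basal and myoepithelial layer were mostly lower in the sorted libraries. Of 14 such genes without keratins, 8 were lower in the sorted library in 4 of 4 shared mice and 2 were higher (9 and 0 when scaled to protein-coding genes), against the 13.2% lower and 33.9% higher (27.1% and 19.4% scaled) over all protein-coding genes. Trp63, the transcription factor of basal epithelial cells, was at 3.88 to 9.31 CPM in the sorted libraries of these mice and 30.2 to 63.0 CPM in the tumors, and Acta2, the smooth muscle actin of contractile myoepithelial cells, was at 8.41 to 21.2 CPM in sorted libraries and 123.4 to 228.2 CPM in tumors. Krt5 was lower in 4 of 4 mice, like most of these genes. Among luminal genes without keratins 6 of 12 were higher and 4 lower in the sorted library in 4 of 4 mice (4 and 4 when scaled to protein-coding genes). Foxa1, a pioneer factor of luminal cells, was at 54.3 to 116.8 CPM in sorted libraries and 18.1 to 59.9 CPM in tumors, whereas Ehf, an epithelial ETS factor, was at 355.5 to 524.8 CPM in sorted libraries and 954.6 to 1143.8 CPM in tumors. Epcam was 0.816-fold to 1.87-fold the tumor level, higher in 3 of 4 mice as deposited and in 1 of 4 when scaled to protein-coding genes. Vim, the vimentin gene, whose product is the intermediate filament protein of macrophages and stroma, was 4.15-fold to 7.95-fold higher in the sorted library, and Adgre1, which encodes F4/80, 18.9-fold to 27.9-fold. Digestion, sorting and freezing differ between the tables along with cell content, and their parts cannot be told apart.

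Keratins outside the 8 averaged below each luminal keratin, but some averaged above basal ones. Over the sorted libraries Krt80 averaged 29.3 CPM, against 13.0 CPM for Krt14. Over tumors Krt10 averaged 12.2 CPM, against 7.04 CPM for Krt5. The tables listed 19 other keratin genes for sorted macrophages and 15 for tumors, and 6 and 5 of them had a mean of at least 1 CPM. Krt80, a type II keratin of differentiating epithelium, was at 15.4, 38.3 and 54.3 CPM in sorted libraries labelled cKO (725, 746 and 867) and 16.5, 35.8 and 15.8 CPM in sorted controls (706, 720 and 775), a difference of 0.57 (SE 0.44). In tumors Krt80 was at 0.805 and 5.03 CPM in those labelled cKO and 0.0293 and 0.0860 CPM in controls, which is 3 reads or fewer, a difference of 1.64 (SE 1.02, limma adjusted p = 0.838). Both tumors labelled cKO were above both controls for Krt80 and for Krt23, which was at 2.19 and 4.21 CPM in tumors labelled cKO and 0.556 and 1.03 CPM in controls. Krt80 and Krt23 were 2 of the 5 other keratins tested there, and 21.2% of all genes lay wholly above. In sorted libraries Krt23 was at 3.24, 8.20 and 2.74 CPM in those labelled cKO and at 0, 3.96 and 3.65 CPM in controls, so that the groups overlapped. Krt6a, a type II keratin of activated epidermis, averaged 9.24 ± 3.33 CPM in sorted libraries labelled cKO and 13.5 ± 8.87 CPM in sorted controls (SD, n = 3 each). Krt4, a type II keratin of internal stratified epithelia, averaged 6.88 ± 4.16 CPM in sorted libraries labelled cKO and 16.8 ± 21.7 CPM in sorted controls (SD, n = 3 each), with 41.8 CPM in control 775. Krt10, a type I keratin of upper epidermis, averaged 4.96 ± 0.646 CPM in sorted libraries labelled cKO and 5.85 ± 3.38 CPM in sorted controls. In tumors Krt10 was at 9.61 and 18.5 CPM in those labelled cKO and 11.04 and 9.63 CPM in controls, the highest level of the other keratins there. Krt79 averaged 1.97 ± 1.09 CPM in tumors labelled cKO and 3.05 ± 0.824 CPM in control tumors (SD, n = 2 each). Krt73 was listed at 0 in both tumors labelled cKO and in control 706, and was at 8.68 CPM in control 720 alone. Krt4, Krt6a and Krt80 were higher in the sorted library than in the tumor in 4 of 4 shared mice, and Krt10 lower in 4 of 4. None of these keratins passed the test of the groups in either table.

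Genes that anchor keratin filaments were read beside them. Of 12 desmosome and plakin genes in sorted libraries, 6 differences were positive and 6 negative (54.7% of all genes were positive), with a median of 0.01 against 0.05 over all genes, and none passed. Pkp3, a plakophilin of the desmosomal plaque, was at 27.9, 41.2 and 24.0 CPM in sorted libraries labelled cKO (725, 746 and 867) and 12.9, 18.9 and 14.7 CPM in controls (706, 720 and 775), a difference of 0.94 (SE 0.39, unadjusted p = 0.0256, limma adjusted p = 0.9998). All 3 libraries labelled cKO were above all 3 controls for Pkp3, alone among the 12 genes, against 3.78% of all genes tested. Pof1b, an actin-binding protein of epithelial junctions, overlapped between the groups in sorted libraries, with a difference of -0.42 (SE 0.31).

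In tumors the difference was positive for 10 of the 12 anchor genes, where 56.6% of all genes were positive, and its median was 0.57 against 0.09 over all genes. None passed the test, 4 had an unadjusted p under 0.05 (856 of 14630 genes did), and 6 had both tumors labelled cKO above both controls, against 21.2% of all genes. The same tumors were separated by the fibroblast sums (346.4 and 457.7 CPM in those labelled cKO, 611.0 and 717.3 CPM in controls) and by the protein-coding share given above, whose part in these values was not tested. Dsp, desmoplakin, which ties intermediate filaments to desmosomes, was at 154.8 and 262.1 CPM in tumors labelled cKO (725 and 746) and 97.5 and 120.7 CPM in control tumors (706 and 720), a difference of 0.89 (SE 0.24, unadjusted p = 0.00207, limma adjusted p = 0.717). Pof1b was at 68.0 and 83.4 CPM in tumors labelled cKO and 35.7 and 41.9 CPM in control tumors, a difference of 0.94 (SE 0.27, limma adjusted p = 0.717). The 4 luminal keratins themselves had a median of 0.08 in the same tumors.

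The luminal and basal programs without keratins gave no gene past the test. In sorted libraries 4 of 12 luminal genes had positive and 8 negative differences (median -0.16), against 54.7% positive and a median of 0.05 over all genes. Foxa1 was at 83.5, 54.3 and 66.4 CPM in sorted libraries labelled cKO (725, 746 and 867) and 116.8, 67.7 and 152.8 CPM in controls (706, 720 and 775), a difference of -0.66 (SE 0.30), and Esr1, the estrogen receptor, differed by -0.59 (SE 0.31). Both had overlapping groups. In tumors 11 of 12 luminal genes had positive differences (median 0.24), against 56.6% positive and a median of 0.09 over all genes. Both tumors labelled cKO lay above both controls for 7 of the 12, against 21.2% of all genes, and the fibroblast sum and protein-coding share separated the same tumors. Kit, a receptor tyrosine kinase of luminal progenitors, was at 393.4 and 377.1 CPM in tumors labelled cKO (725 and 746) and 253.6 and 280.1 CPM in control tumors (706 and 720), a difference of 0.53 (SE 0.18, limma adjusted p = 0.819). Pgr, the progesterone receptor, was at 57.6 and 18.1 CPM in tumors labelled cKO and 18.0 and 3.64 CPM in control tumors, so that its groups were separated by a narrow gap.

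Among basal and myoepithelial genes without keratins, 9 of 13 tested had positive differences in sorted libraries (median 0.46) and 6 of 14 in tumors (median -0.10). Over all genes tested 54.7% were positive in sorted libraries (median 0.05) and 56.6% in tumors (median 0.09). In sorted libraries Acta2 and Lamb3, a laminin chain of the basement membrane, differed by 0.74 (SE 0.49) and 0.57 (SE 0.41), with overlapping groups. Trp63 was at 63.0 and 60.3 CPM in tumors labelled cKO (725 and 746) and 30.2 and 35.7 CPM in control tumors (706 and 720), a difference of 0.89 (SE 0.28, unadjusted p = 0.00542, limma adjusted p = 0.767). Myh11, the smooth muscle myosin heavy chain, went the other way, at 24.3 and 19.8 CPM in tumors labelled cKO and 47.7 and 29.5 CPM in control tumors, a difference of -0.75 (SE 0.35). Neither Krt5 nor Krt14 separated the tumors as Trp63 did. Of the 14 genes 4 lay wholly above in tumors labelled cKO and 3 wholly below, against 21.2% and 14.3% of all genes.

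Epithelial genes without keratins and other intermediate filament genes complete the setting. Of 12 epithelial genes, 8 had positive differences in sorted libraries (median 0.09) and 7 in tumors (median 0.12). These counts are near the shares over all genes, 54.7% positive in sorted libraries (median 0.05) and 56.6% in tumors (median 0.09). In sorted libraries Elf3, an epithelial ETS factor, was at 49.0, 66.0 and 52.0 CPM in those labelled cKO (725, 746 and 867) and 87.5, 81.2 and 89.7 CPM in controls (706, 720 and 775), a difference of -0.63 (SE 0.27, unadjusted p = 0.0302, limma adjusted p = 0.9998). Elf5, an ETS factor of luminal progenitors and alveolar cells, was at 90.4, 96.9 and 116.3 CPM in those labelled cKO and 68.2, 81.5 and 81.8 CPM in controls, a difference of 0.38 (SE 0.26). Of the 12 genes, Elf3 alone had all libraries labelled cKO below all controls, and Elf5 alone had them above. Over all genes tested 3.45% lay wholly below and 3.78% wholly above. Epcam differed by 0.29 (SE 0.26) in sorted libraries and by -0.19 (SE 0.19) in tumors. In tumors Cldn3, a tight junction gene, and Prom2, a membrane protein of epithelial protrusions, differed by 0.77 (SE 0.36) and 0.52 (SE 0.33), both with tumors labelled cKO above controls. Of the 12 genes 5 lay wholly above in tumors labelled cKO and 1 wholly below, against 21.2% and 14.3% of all genes. Of the other intermediate filaments, 7 were tested in each table, with 5 positive in sorted libraries and 4 in tumors, against 54.7% and 56.6% of all genes. Nes, which encodes nestin, differed by 1.14 (SE 0.46) in sorted libraries and by 1.67 (SE 0.46, limma adjusted p = 0.717) in tumors, where it was at 29.0 and 50.1 CPM in those labelled cKO and 18.6 and 6.73 CPM in controls. Lmna, the gene of the nuclear lamins A and C, differed by 0.59 (SE 0.30) in sorted libraries, and Synm, synemin, by -1.06 (SE 0.60) in tumors. Vim differed by 0.32 (SE 0.29) and 0.12 (SE 0.29).

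**Figure D4:**
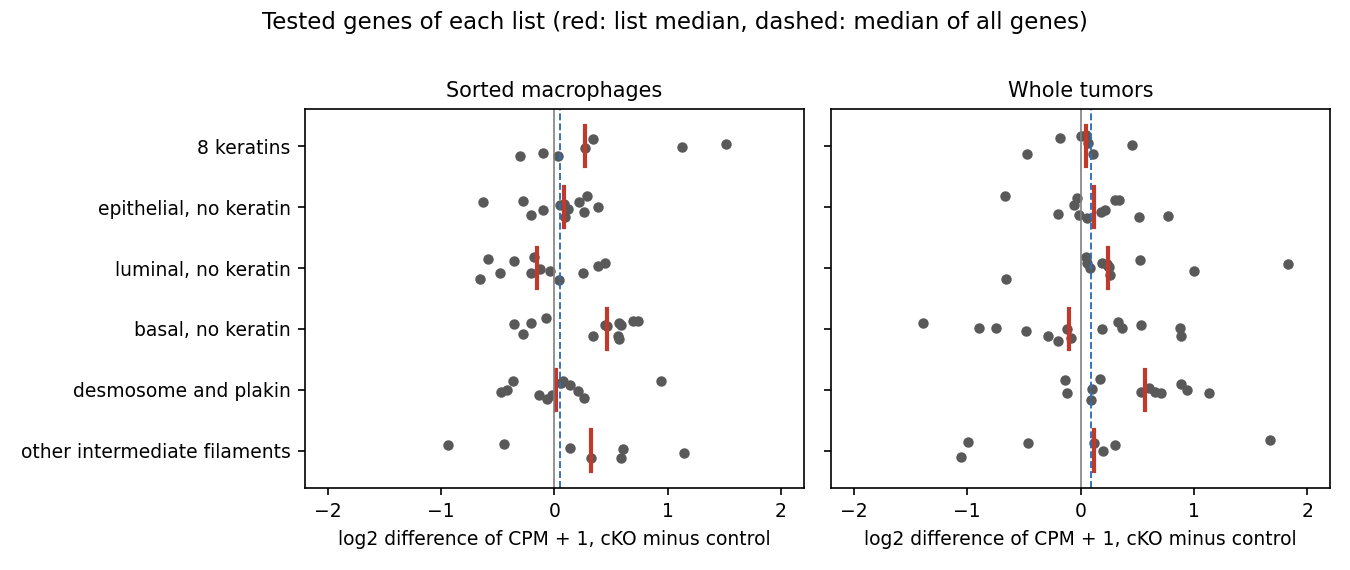
Difference between libraries labelled cKO and controls (log2 of CPM + 1, horizontal axis) for each tested gene of the keratins and 5 related lists, in sorted macrophages (left) and whole tumors (right); grey points are genes, red bars list medians and the dashed blue line the median of all genes. The first row holds 7 of the 8 keratins, since Krt15 was not tested, and the row of desmosome and plakin genes has its median at 0.57 in tumors and 0.01 in sorted macrophages.

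Luminal keratins did not all vary together over the 6 sorted libraries. Of 6 pairs, Krt8 and Krt18 had a Pearson r of 0.63 (exact permutation p = 0.194, adjusted p = 0.444 over the 6 pairs) and a Spearman rho of 0.49 (exact permutation p = 0.356). Leaving out the 2 libraries farthest from the median of Krt8 gave an r of 0.67. Krt8 and Krt19 went in opposite directions, with an r of -0.74 (exact permutation p = 0.0444, adjusted p = 0.267) and a rho of -0.89 (exact permutation p = 0.0333, adjusted p = 0.2), and an r of -0.72 without the 2 farthest libraries. Neither relation passed the adjustment. The r values with 2 libraries left out come from fewer than 6 libraries and were not tested. The other 4 pairs had r from -0.22 to 0.56 and adjusted p of at least 0.444 by exact permutation. The libraries with the most Krt8, cKO 746 and control 720, also had the most Cxcr4, but the order did not hold below them. Control 775, with the least Krt8 (260.2 CPM), had 54.3 CPM of Cxcr4, and cKO 867, with 366.3 CPM of Krt8, had 24.1 CPM. A relation of Krt8 to Cxcr4 was not tested. The relations of the luminal pairs pool both groups, and libraries of 1 group are too few for a value within it.

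Genes whose level followed Krt8 most closely over the 6 sorted libraries were Iffo2, Braf and Tmcc3, each with a Pearson r of 0.99 and the same rank order as Krt8. Iffo2 was at 71.1, 133.3 and 95.02 CPM in libraries labelled cKO (725, 746 and 867) and 65.6, 121.5 and 57.6 CPM in controls (706, 720 and 775). For Krt14 they were Zdhhc18, Tead3 and Atg7, likewise with the same rank order, and Tead3 was at 3.34, 17.01 and 6.84 CPM in libraries labelled cKO and 7.16, 10.4 and 4.87 CPM in controls. With 6 libraries such likeness is common: of 10037 genes compared, 220 had an r above 0.9 with Krt8 and 176 with Krt14. The 8 keratins were left out of this ranking, and none of the other 3 luminal keratins had an r above 0.63 with Krt8.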

How the data were processed

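RNA of sorted tumor macrophages (6 libraries) and whole tumors (4 libraries) was sequenced after ribosomal RNA depletion, per the labels' protocols. The submitters' processing notes name STAR 2.7.8a, Partek and GRCm38 (mm10); counting settings and read length are not given in the sources used here. The authors deposited log2 values, read here as log2(CPM + 1) because, with the log undone and 1 taken off, each library summed to 1000000. Steps between low values gave the depth; 83.5% to 89.3% of low values were whole reads within 0.1 read, too few for a count test.

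In R 4.3.3, limma 3.58.1 (lmFit and eBayes with an intensity trend) compared the groups within each table, libraries labelled cKO minus controls, for genes averaging at least 1 CPM. P-values were two-sided, with Benjamini-Hochberg adjustment over all genes tested and a threshold of 0.05; the fit was tested on simulated data. The pseudocount of 1 understates changes of weakly read genes. Each library within a table is a different mouse; litters and size-matched partners are not named, so p-values measure only the spread between these samples. Table positions were not GRCm38 (2.19% and 2.29% of gene starts matched), so positions came from GENCODE vM21 by gene ID. Sorted and tumor libraries were compared only as ratios, with no test.

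Members and lists were chosen with earlier results of these data known. Genes named are the 8 keratins; the 2 members of lowest p of each other list in each table; for other keratins also the 4 highest; and Epcam, Adgre1, Vim and Cxcr4. Ehf, Cldn4, Esrp1 and Krt8-ps, and Foxa1, Trp63 and Acta2 in the comparison of tables, were chosen after their values were seen. The planned ranking of genes like Krt8 and Krt14 over the 4 tumors was left out, having under 6 samples. Alternatives were pseudocounts of 0.1 and 5, no filter or 5 CPM, trimmed mean, median-ratio or protein-coding scaling, no trend, and each library left out.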

Additional observations from a re-analysis of the deposited data

How the results depend on the processing

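Under the alternatives, 185 keratin differences were computed and 0 passed the threshold (limma, lowest adjusted p 0.665); 25 changed sign. The count of genes past the threshold in sorted macrophages was 2 in the 4 shared mice and 0 to 3 with a library left out, 1 without cKO 867 or control 706 and 3 without control 775; it was 0 under the other settings and under all settings in tumors. No paired analysis was possible because the groups share no mouse number and the labels do not name the size-matched partners.

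In sorted macrophages Krt14 turned to -0.034 with protein-coding scaling and -0.21 in the 4 shared mice, where Krt19 turned to 0.020. With a library left out, Krt14 ran from -0.58 to 0.57, Krt7 from -0.33 to 0.17 and Krt19 from -0.67 to 0.052. In tumors, trimmed-mean scaling gave -0.055 for Krt7 and -0.019 for Krt8, and median-ratio scaling -0.071, -0.036 and, for Krt5, -0.0054. Protein-coding scaling gave -0.11 for Krt7, -0.072 for Krt8, -0.0027 for Krt18 and -0.047 for Krt5, and Krt8 with Krt8-ps, an alternative added after seeing the data, -0.24. With a tumor left out, Krt5 ran from -0.46 to 0.59, Krt7 from -0.28 to 0.30 and Krt8 from -0.18 to 0.26. The cause was not tested.

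The sorted minus tumor step of luminal keratins against the epithelial list (log2 1.16) was 1.91 against Epcam alone, 2.02 without Cldn4 and 0.75 without Esrp1, and 1.10 to 1.25 with a mouse left out. At this depth 3 reads are 0.119 to 0.208 CPM in sorted libraries, which limits Krt5 and Krt15.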

Other observations

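The pseudogene Krt8-ps was at 0.483, 0.324 and 0.532 of the Krt8 level in sorted libraries labelled cKO (725, 746 and 867) and at 0.362, 0.340 and 0.511 in sorted controls (706, 720 and 775). In tumors it was at 0.434 and 0.298 in those labelled cKO (725 and 746) and at 0.690 and 0.637 in controls (706 and 720), so that both tumors labelled cKO lay below both controls. Among single genes tested in tumors, 14.3% lay wholly below in the same way. Of the 75-base stretches of Krt8-ps 47.5% occur in Krt8, and how reads matching both were assigned is not given in the sources used here.

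The ratio of Krt19 to Krt18 was 3.04-fold higher in the sorted library of control 706 than in its tumor, against 1.21-fold to 1.51-fold in the other 3 shared mice.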
